A study of Homo sapiens with 4 samples.

Results

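IL11, the cytokines and signal-transducing receptor subunit of the interleukin-6 (IL6) family, and a group of neutrophil- and monocyte-attracting chemokines were followed in A549 cells transduced with an FCN3-expressing virus or with the control empty virus (EV). A549 is a human lung adenocarcinoma cell line, FCN3 encodes a secreted lectin of the complement system, and both viruses carry GFP. There were 2 EV libraries and 2 FCN3 virus libraries, with RNA taken 48 h after infection per the labels. The control virus carries GFP without FCN3, and all libraries come from bulk cultures of this 1 cell line, in which fewer cells of a kind and less RNA per cell cannot be told apart. The 10 genes were IL11, IL6, LIF, IL6ST, CXCL1, CXCL2, CXCL3, CXCL5, IL8 (the older symbol of CXCL8, as the deposited tables write it) and CCL2, out of 25192 genes listed. IL11 was chosen by its fall in these same libraries, so its difference is given as a description with no test. The other 9 genes were chosen by family, with earlier results of these data known. All 10 passed the filter on low counts, and all had a value in every library.

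Cytokines of the IL6 family bind a ligand-specific receptor and then share the subunit gp130, encoded by IL6ST, which activates JAK kinases and the transcription factor STAT3. IL11 and IL6 each use their own alpha receptor together with gp130, whereas LIF uses the LIF receptor with gp130. CXCL1, CXCL2, CXCL3, CXCL5 and CXCL8 are CXC chemokines that attract neutrophils through the receptor CXCR2, and CCL2 attracts monocytes through CCR2. Many of these genes are classic targets of the transcription factors NF-kappaB and AP-1, and their mRNAs are known to be short-lived.

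The genomic positions show how the chemokine genes are arranged. On GRCh37, with GENCODE annotation, the 5 CXC genes lie together on chromosome 4 in the order IL8 (74606236 to 74609433, plus strand), CXCL1 (74735110 to 74737025, plus strand), CXCL5 (74861359 to 74864394, minus strand), CXCL3 (74902306 to 74904524, minus strand) and CXCL2 (74962757 to 74964913, minus strand). IL11 is on chromosome 19 (55875750 to 55881831, minus strand) and CCL2 on chromosome 17 (32582293 to 32584227, plus strand). IL6 is on chromosome 7 (22765503 to 22771621, plus strand), LIF on chromosome 22 (30636442 to 30642748, minus strand), and IL6ST on chromosome 5 (55230923 to 55290850, minus strand). All 10 are annotated as protein-coding. IL6 overlaps STEAP1B and IL6-AS1 on the opposite strand, and LIF, IL6ST and CXCL5 overlap noncoding genes or a pseudogene on the opposite strand. Since the strand setting of the counting is not given in the sources used here, reads from such overlaps cannot be told apart.

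Upstream sequences are shown for IL11, the gene with the largest difference among the 10, and for CXCL1, CXCL2 and CXCL3, related genes whose FCN3 virus values lay on different sides of EV. They are the 120 bases before the annotated start, read 5′ to 3′ on the gene's strand, from RefSeq on GRCh38.p14, and their coordinates must not be mixed with the GRCh37 positions above. The IL11 stretch is chr19:55370464-55370583, minus strand, with the AP-1 motif TGANTCA in capitals, 96 to 90 bases before the start. The CXCL1 stretch is chr4:73869273-73869392, plus strand, that of CXCL2 is chr4:74099196-74099315, minus strand, and that of CXCL3 is chr4:74038690-74038809, minus strand. Capitals there mark the NF-kappaB consensus, which matched in 2 overlapping frames, 1 on each strand.
IL11: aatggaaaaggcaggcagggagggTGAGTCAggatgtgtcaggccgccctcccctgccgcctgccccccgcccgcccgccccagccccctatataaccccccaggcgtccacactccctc
CXCL1: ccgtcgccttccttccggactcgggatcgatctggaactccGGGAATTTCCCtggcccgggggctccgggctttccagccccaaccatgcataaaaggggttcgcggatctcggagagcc
CXCL2: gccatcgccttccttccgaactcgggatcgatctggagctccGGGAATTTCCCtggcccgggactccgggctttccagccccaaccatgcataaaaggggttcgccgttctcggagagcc
CXCL3: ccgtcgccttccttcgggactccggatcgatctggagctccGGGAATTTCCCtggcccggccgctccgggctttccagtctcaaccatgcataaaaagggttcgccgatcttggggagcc

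Over the 250 bases before the start, the 3 chemokine sequences were 70.1% (CXCL1 and CXCL2), 81.4% (CXCL1 and CXCL3) and 73.4% (CXCL2 and CXCL3) identical in global alignments. RefSeq sequence was found for 8 of the 10 genes, without LIF and CCL2. Searched on both strands, the NF-kappaB consensus was present in 6 of the 8 (CXCL1, CXCL2, CXCL3, CXCL5, IL6 and IL6ST) and in 9.96% of 35116 windows of the same length. In CXCL5 it overlapped a match of the STAT motif TTCNNNGAA, found in 1 of the 8 and in 6.57% of all windows. The AP-1 motif TGANTCA was present in IL11 and CXCL8 and in 6.57% of all windows, and the C/EBP motif TTGCNNAA in CXCL2 and IL6 and in 9.05%. The cAMP response element TGACGTCA was in 0 of the 8 and in 1.65% of all windows, and TATAAA in CXCL8 alone and in 10.7%. A match of letters describes the sequence and says nothing of binding.

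The libraries held 35733735 (EV replicate 1), 16353554 (EV replicate 2), 35031565 (FCN3 replicate 1) and 20136068 (FCN3 replicate 2) expected counts, so replicate 1 was the deeper in both groups. FCN3 had at most 1 count in the EV libraries and 722388 and 448352 counts with the FCN3 virus. The epithelial keratins KRT8 and KRT18 stood between 1131 and 2651 CPM (TMM-normalized CPM) in all libraries, with overlapping groups. With a block for the replicate number, edgeR called all 5 epithelial markers at an FDR of 0.01. KRT8, KRT18 and KRT19 were the 3 higher and EPCAM and CDH1 the 2 lower, against 19.1% and 17.1% of all tested genes. Without the block it called 0 of the 5. Of the other 3 epithelial markers, KRT19 rose from 23.1 and 37.5 CPM in EV to 67.3 and 74.4 CPM (log2 difference 1.24, edgeR adjusted p = 0.040 without and 6.2e-20 with a block for the replicate number). The adhesion molecules EPCAM (2.25 and 3.11 CPM in EV, 1.002 and 1.46 CPM with the FCN3 virus) and CDH1 (15.4 and 24.4 CPM, then 9.23 and 18.4 CPM, overlapping) were lower in edgeR with the block (adjusted p = 1.6e-04 and 3.2e-06), and DESeq2 with the block called neither (adjusted p = 0.10 and 0.013). Of 4 immune markers, CD3E was at 0 and PTPRC at no more than 1 count, while the list summed to 32.6 and 33.9 CPM in EV and 62.4 and 49.1 CPM with the FCN3 virus, almost all of it CD68, a lysosomal protein. The 2 that passed the filter on low counts went opposite ways. With the block edgeR called CD68 higher and CD14 lower, and without it called 0, while DESeq2 without the block called 1 higher. The 4 fibroblast markers summed to 11.4 and 27.3 CPM in EV and 9.64 and 27.8 CPM with the FCN3 virus, with DCN at 0, and the 3 endothelial markers to between 0 and 8 counts, with PECAM1 at 0. The part of these markers in the results below was not tested.

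Levels can be compared between genes in TPM, which is scaled by gene length. In EV cells CXCL5 stood highest at 154 ± 76.6 TPM (SD, n = 2), followed by CCL2 (51.1 ± 7.58), LIF (43.6 ± 8.74), IL6ST (42.8 ± 6.89) and IL11 (37.6 ± 0.0566). The EV values of CCL2, LIF and IL6ST overlapped, and those of IL11 lay within the range of LIF and just below IL6ST. CXCL2 followed at 9.07 ± 0.389 TPM, then CXCL1 (5.38 ± 0.0707), CXCL3 (4.41 ± 1.89) and IL8 (4.4 ± 0.0707), whose ranges CXCL3 spanned, and IL6 was lowest at 1.3 ± 0.58 TPM. With the FCN3 virus CXCL5 was again highest (115 ± 44.8 TPM, SD, n = 2) and IL6 again lowest (0.855 ± 0.247), as they were in each of the 4 libraries. LIF (59.5 ± 14.1) and IL6ST (54.9 ± 8.87) overlapped and now both lay above CCL2 (27.0 ± 5.74), CXCL2 (10.8 ± 0.629), IL11 (10.7 ± 0.332) and CXCL3 (7.33 ± 2.001). CXCL2 and IL11 overlapped in this group, and so did IL8 (3.56 ± 1.15) and CXCL1 (3.15 ± 0.806).

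**Figure D1:**
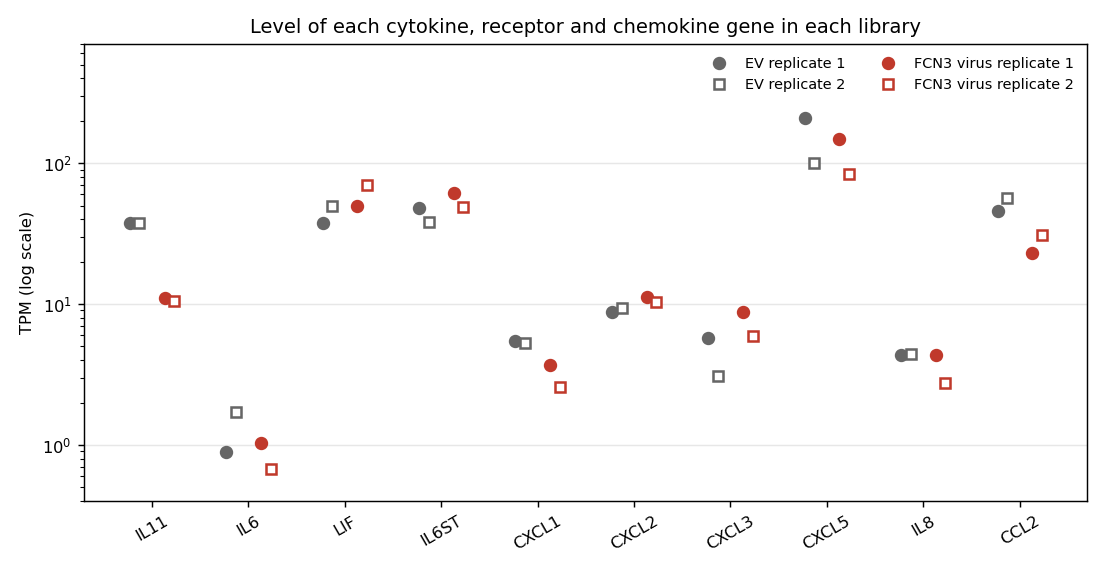
Level of each of the 10 genes in TPM on a log axis, with grey symbols for EV and red symbols for FCN3 virus, circles for replicate 1 and open squares for replicate 2. IL11 lies near 37.6 TPM in both EV libraries and at 10.96 and 10.49 TPM with the FCN3 virus, while CXCL5 differs more between replicate numbers than between groups.

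The comparison of FCN3 virus with EV asks how these cytokine genes stood when ectopic FCN3 was expressed. Without a term for the replicate number, edgeR's quasi-likelihood test called 0 of the 9 genes other than IL11 at an FDR of 0.01, against 0.965% of the 14099 tested genes. At an unadjusted p below 0.05 it picked 3 of the 9 (LIF, IL6ST and CCL2), against 25.1% of all tested genes. DESeq2 and limma-voom also called 0 of the 9, against 7.86% and 0.979% of the genes they tested. With the replicate number as a block, edgeR called 5 of the 9, against 36.2% of all tested genes: LIF, IL6ST and CXCL3 higher (3 genes, against 19.1%) and CXCL5 and CCL2 lower (2 genes, against 17.1%). DESeq2 with the block called 4 of the 9, without CXCL3, against 16.2%. Both FCN3 virus libraries lay above both EV libraries in 4 of the 9 (LIF, IL6ST, CXCL2 and CXCL3), against 28.0% of tested genes, and below both in 2 (CXCL1 and CCL2), against 26.5%. The 3 others (IL6, CXCL5 and IL8) overlapped. Read against these backgrounds, the counts give no result about the 9 genes as a group.

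The block matters because same-numbered libraries differed from the other number in like ways, which the labels leave unexplained. With the block the 4 libraries leave almost no residual degrees of freedom per gene. Its small p-values therefore rest largely on spread pooled over all genes, not on the gene's own replicates. With 2 libraries against 2, the smallest two-sided p of an exact permutation test on any gene is 0.333, so genes were tested only in fits across all genes. Nothing in the labels says that the libraries came from separate cultures, so the p-values measure the spread between these libraries, which may be technical.

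**Figure D2:**
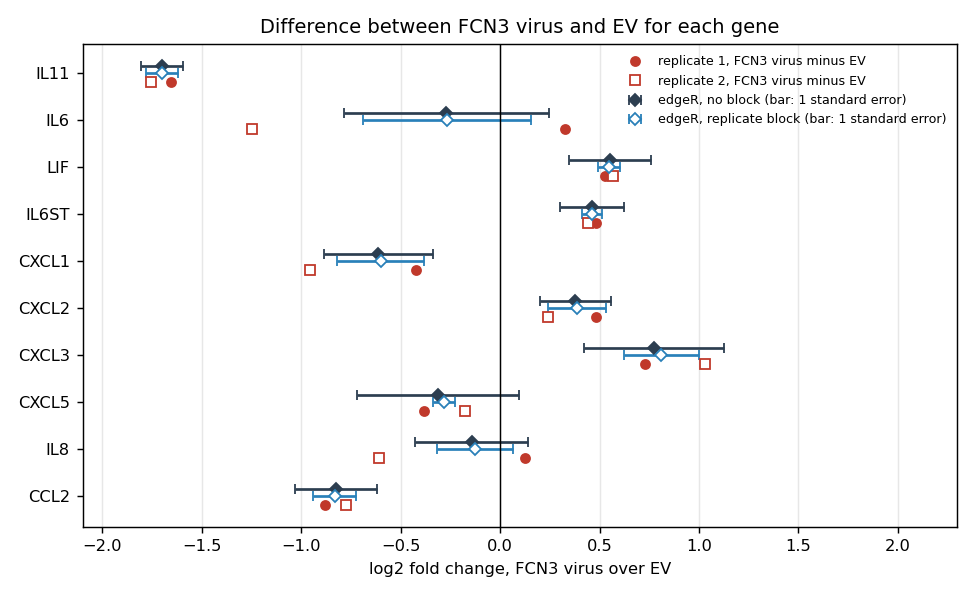
Log2 difference of each gene, FCN3 virus over EV, from edgeR without the replicate block (filled diamonds) and with it (open diamonds), with bars of 1 standard error, and the differences within replicate 1 (red circles) and replicate 2 (red open squares). LIF, IL6ST and CCL2 have nearly the same difference in both replicate numbers, while IL6 and IL8 have opposite signs in the 2 pairs.

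IL11, a cytokine known for its part in fibrosis and stromal signalling, had expected counts of 1647 and 762 in EV replicates 1 and 2 and of 487 and 268 with the FCN3 virus. These were 45.2 and 45.5 CPM in EV and 14.4 and 13.5 CPM with the FCN3 virus, so that the groups did not overlap and the EV libraries differed by far less than the groups. The log2 difference, FCN3 virus minus EV, was -1.70 (SE, the standard error, 0.11), or 0.308 of the EV level. Within replicate 1 it was -1.65, and within replicate 2 it was -1.76. With each library left out in turn it stayed between -1.75 and -1.66. As IL11 was chosen by its fall in these libraries, these values describe the fall and lend it no support. Its place among the 10 genes in TPM went from the 4th and 5th in the EV libraries to the 6th and 5th with the FCN3 virus.

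The genes nearest to IL11 in their profile over the 4 libraries were named by the root mean square difference of log2 CPM, each gene centred on its own mean, among 11960 genes whose average log2 CPM reached 1. Among the nearest were PDE7B (difference 0.0604), LOC388282 (0.0612), E2F8 (0.0718) and PEG10 (0.0730). PDE7B, a cAMP phosphodiesterase, went from 16.2 and 16.2 CPM in EV to 4.66 and 4.42 CPM. With 4 libraries this likeness mostly says that a gene was lower in both FCN3 virus libraries by a like amount.

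LIF, the family member that signals through LIFR and gp130, was at 77.4 and 104 CPM in EV replicates 1 and 2 and at 112 and 154 CPM with the FCN3 virus. Both FCN3 virus libraries lay above both EV libraries, the nearest pair being FCN3 replicate 1 and EV replicate 2. The log2 difference was 0.55 (SE 0.21, 1.47-fold, edgeR adjusted p = 0.18 without and 4.8e-12 with the replicate block). It was 0.53 within replicate 1 and 0.57 within replicate 2. Without the block, leaving out a library moved it between 0.30 (without FCN3 replicate 2) and 0.77 (without EV replicate 2), and it was 0.36 without EV replicate 1. Replicate 2 exceeded replicate 1 in both groups, by 0.43 and 0.46 on the log2 scale. As IL11 was lower and LIF higher, the ratio of LIF to IL11 in TPM went from 0.994 and 1.33 in EV to 4.52 and 6.62 with the FCN3 virus.

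IL6ST, which encodes the shared subunit gp130, stood at 231 and 185 CPM in EV and 322 and 252 CPM with the FCN3 virus. The groups did not overlap, although FCN3 replicate 2 was closer to EV replicate 1 than to FCN3 replicate 1. The log2 difference was 0.46 (SE 0.16, 1.38-fold, edgeR adjusted p = 0.16 without and 4.5e-11 with the replicate block). Within replicates 1 and 2 it was 0.48 and 0.44. Leaving out FCN3 replicate 1 gave 0.27 and leaving out EV replicate 2 gave 0.31 in the fit without the block, and the highest such value was 0.64.

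IL6, the founding cytokine of the family, was close to the limit of the data, with 18 and 16 expected counts in EV and 21 and 8 with the FCN3 virus. These were 0.494 and 0.956 CPM in EV and 0.619 and 0.402 CPM with the FCN3 virus, and the groups overlapped. The difference was 0.33 on the log2 scale within replicate 1 and -1.25 within replicate 2. A difference was not detectable at this depth: with the replicate block the approximate 95% interval of the log2 difference ran from -1.10 to 0.56 (edgeR, adjusted p = 0.63).

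Among the chemokines, CCL2, the monocyte attractant, was at 14.5 and 18.0 CPM in EV and 7.87 and 10.5 CPM with the FCN3 virus. Both FCN3 virus libraries lay below both EV libraries. Its log2 difference was -0.83 (SE 0.21, 0.564 of the EV level, edgeR adjusted p = 0.077 without and 5.5e-09 with the replicate block). It was -0.88 within replicate 1 and -0.78 within replicate 2. After IL11, CCL2 had the largest absolute log2 difference of the 10 genes in the fit without the block, and left-out libraries moved it between -1.04 and -0.62.

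CXCL5, the most abundant chemokine here, was at 261 and 126 CPM in EV and 200 and 112 CPM with the FCN3 virus. The groups overlapped, since replicate 1 exceeded replicate 2 by 1.04 (EV) and 0.84 (FCN3 virus) on the log2 scale, more than the groups differed. Its log2 difference was -0.31 (SE 0.41, adjusted p = 0.69 in edgeR), and with the replicate block -0.28 (SE 0.05, adjusted p = 2.0e-05). Within replicates 1 and 2 it was -0.38 and -0.18. The fall of CXCL5 therefore rests on comparing libraries of the same number: without EV replicate 1 the fit without the block gave 0.31, and without FCN3 replicate 2 it gave 0.04.

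CXCL1, CXCL2 and CXCL3 encode closely related neutrophil attractants. CXCL1 was at 2.96 and 2.93 CPM in EV and 2.21 and 1.51 CPM with the FCN3 virus, below both EV libraries, from 108, 49, 75 and 30 expected counts in that order of libraries. CXCL2 was at 4.97 and 5.32 CPM in EV and 6.93 and 6.28 CPM with the FCN3 virus, above both EV libraries, from 181, 89, 235 and 125 counts. CXCL3 was at 3.10 and 1.67 CPM in EV and 5.13 and 3.42 CPM with the FCN3 virus, again above, from 113, 28, 174 and 68 counts. In CXCL3, EV replicate 1 came close to FCN3 replicate 2.

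CXCL3 had a log2 difference of 0.77 (SE 0.35, adjusted p = 0.25 in edgeR), and 0.81 with the replicate block (SE 0.19, adjusted p = 0.00033), the single call of the 3 genes, which DESeq2 with the block did not make (adjusted p = 0.13). With 1 library left out in turn it ranged from 0.43 (without FCN3 replicate 1) to 1.41 (without EV replicate 1), and it was 0.50 without EV replicate 2. CXCL1 had a log2 difference of -0.61 (SE 0.27, adjusted p = 0.24 from edgeR, and 0.021 with the block) and CXCL2 of 0.38 (SE 0.18, adjusted p = 0.26 from edgeR, and 0.028 with the block). Neither passed the FDR of 0.01. Without FCN3 replicate 1 the value of CXCL1 was -0.97. With the block their approximate 95% intervals were -1.03 to -0.17 for CXCL1 and 0.10 to 0.68 for CXCL2.

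The close copies could in principle share reads, which RSEM divides between genes. Every expected count of the 10 genes in the 4 libraries was whole within 0.005. Of the 1074 windows as long as a read in the longest GENCODE transcript of CXCL1, 0 occurred in a CXCL2 or CXCL3 transcript, and of the 1015 windows in that of CXCL2, 0 occurred in CXCL3. Summed over the 3 genes, the counts were 402 and 166 in EV and 484 and 223 with the FCN3 virus, a log2 difference of 0.29 (SE 0.18, adjusted p = 0.38 from edgeR, and 0.027 with the block). The difference of this sum moved with the library left out, to 0.09 without FCN3 replicate 1 and 0.44 without FCN3 replicate 2. It was 0.39 without EV replicate 1 and 0.21 without EV replicate 2. Within that sum the share of CXCL1 was 26.9% (95% Wilson interval 22.8 to 31.4) and 29.5% (23.1 to 36.9) in EV and 15.5% (12.5 to 19.0) and 13.5% (9.59 to 18.6) with the FCN3 virus. The share of CXCL3 was 28.1% (23.9 to 32.7) and 16.9% (11.9 to 23.3) in EV and 36.0% (31.8 to 40.3) and 30.5% (24.8 to 36.8) with the FCN3 virus. For both genes the groups did not overlap in share, but the CXCL3 interval of EV replicate 1 overlapped those of both FCN3 virus libraries. The share of CXCL2 was 45.0% and 53.6% in EV and 48.6% and 56.1% with the FCN3 virus, in overlapping groups. The shares restate the differences in CPM given above, lend them no further support and were not tested. The intervals cover counting error only. The ratio of CXCL3 to CXCL1 counts was 1.05 and 0.571 in EV and 2.32 and 2.27 with the FCN3 virus.

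**Figure D3:**
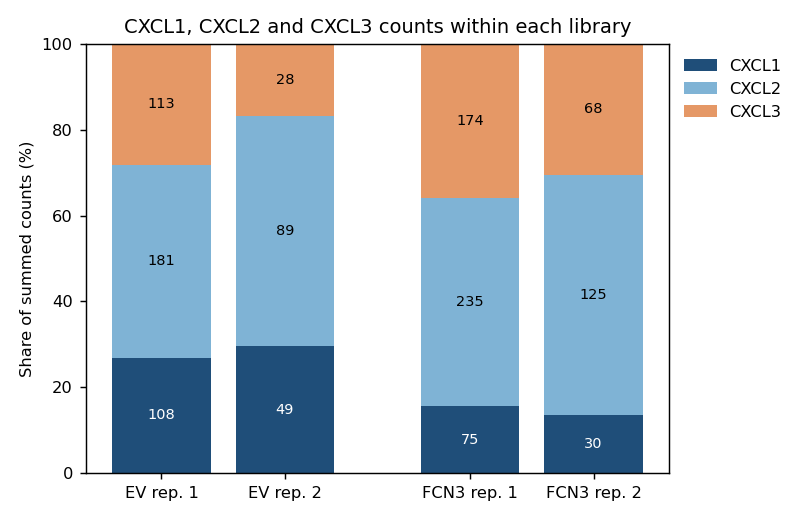
Share in percent of the summed expected counts of CXCL1, CXCL2 and CXCL3 that each gene took in each library, with the expected count written in each bar. CXCL1 takes 26.9% and 29.5% in the EV libraries and 15.5% and 13.5% in the FCN3 virus libraries.

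IL8 (CXCL8), the best-known neutrophil chemokine, was at 3.65 and 3.76 CPM in EV and 3.98 and 2.46 CPM with the FCN3 virus. FCN3 replicate 1 was the highest of the 4 libraries and FCN3 replicate 2 the lowest. Its log2 difference was -0.14 (SE 0.28, adjusted p = 0.80 from edgeR, and 0.62 with the replicate block), with an approximate 95% interval of -0.50 to 0.24 under the block. Within replicates 1 and 2 it was 0.13 and -0.61.

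The counts in the related lists that follow stand beside these shares of all tested genes: edgeR called 0.965% without the block and 36.2% with it (19.1% higher and 17.1% lower), 25.1% had an unadjusted p below 0.05, and DESeq2 called 7.86% without and 16.2% with the block. A list's count near its share is not a result about the list. Where a gene was called by edgeR with the block and not by DESeq2 with the block, its values are given without a direction of change.

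The neighbouring CXC genes were nearly silent. CXCL6, PPBP and PF4 had at most 2 expected counts in any library, and of the 11 CXC chemokines outside the 10 genes only CXCL16, a membrane-bound chemokine, passed the filter (14.9 and 15.2 CPM in EV, 11.7 and 15.1 CPM with the FCN3 virus, edgeR adjusted p = 0.57 without and 0.12 with the block). Of 15 CC and CX3C chemokines 2 passed the filter. edgeR called 0 of them without the block, as did DESeq2 and limma-voom, with 1 at an unadjusted p below 0.05, and with the block edgeR called 1 and DESeq2 0. CCL5, a chemokine of T cells and monocytes and the gene called, was at 0.110 and 0.299 CPM in EV and 0.708 and 1.71 CPM with the FCN3 virus (log2 difference 2.66, SE 0.78). It had 4 and 5 counts in EV and passed the filter only through the FCN3 virus libraries, where it was high. Its call therefore lends the difference no support, and no p-value is given. CCL26 was at 0.741 and 0.657 CPM in EV and 0.796 and 0.603 CPM with the FCN3 virus.

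Receptors for these chemokines were at the floor of 3 counts or near it. CXCR1 and CCR2 had 0 counts in all libraries, and CXCR2 had 0 and 0 counts in EV and 1 and 4 with the FCN3 virus. Of 14 chemokine receptors 3 passed the filter. edgeR called 0 without the block (1 at an unadjusted p below 0.05, with DESeq2 calling 1 and limma-voom 0), and with it edgeR called 2 and DESeq2 1. ACKR3, a scavenging receptor for CXCL12, rose with the block, from 6.89 and 9.14 CPM in EV to 20.2 and 19.5 CPM (log2 difference 1.34, SE 0.18, edgeR adjusted p = 0.018 without and 4.4e-15 with the block). CCR7 was at 2.31 and 5.08 CPM in EV and 0.973 and 2.31 CPM with the FCN3 virus, in overlapping groups (log2 difference -1.16, edgeR adjusted p = 0.28 without and 1.6e-05 with the block, DESeq2 with the block 0.037). CXCR4 was at 0.329 and 0.478 CPM in EV and 0.324 and 0.503 CPM with the FCN3 virus.

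The receptors of the IL6 family were present in these cells apart from CNTFR, the receptor for ciliary neurotrophic factor, at no more than 3 counts. Of 7 receptors 6 passed the filter, with a median log2 difference of -0.03 against 0.02 over all tested genes. edgeR called 0 without the block (3 at an unadjusted p below 0.05, with DESeq2 calling 2 and limma-voom 0), and with it 2 higher and 2 lower, while DESeq2 with the block called 2. OSMR, the oncostatin M receptor, was the most abundant of these 7, which leave out IL6ST. It was at 37.9 and 40.5 TPM in EV and 52.2 and 49.5 TPM with the FCN3 virus, a log2 difference of 0.53 (SE 0.09, edgeR adjusted p = 0.032 without and 2.3e-11 with the block). IL31RA, the receptor for IL31, rose from 4.94 and 4.42 CPM to 14.4 and 10.5 CPM with the block (log2 difference 1.41, SE 0.22, edgeR adjusted p = 0.026 without and 2.1e-13 with the block).

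IL27RA was at 16.8 and 15.7 CPM in EV and 12.0 and 11.6 CPM with the FCN3 virus (log2 difference -0.47, edgeR adjusted p = 0.10 without and 1.6e-04 with the block, DESeq2 with the block 0.069). IL6R, the receptor for IL6, was at 14.9 and 9.86 CPM in EV and 12.1 and 5.88 CPM with the FCN3 virus, in overlapping groups (log2 difference -0.45, edgeR adjusted p = 0.51 without and 0.0013 with the block, DESeq2 with the block 0.11). IL11RA, the receptor for IL11, was at 2.91 and 4.84 CPM in EV and 2.39 and 4.73 CPM with the FCN3 virus, and differed more by replicate number than by group (log2 difference -0.12, SE 0.43, edgeR adjusted p = 0.90 without and 0.50 with the block). LIFR was at 21.2 and 18.2 CPM in EV and 21.6 and 19.3 CPM with the FCN3 virus (log2 difference 0.05, edgeR adjusted p = 0.87 without and 0.66 with the block). So LIF and IL6ST were higher under the block where their partner LIFR gave no detectable difference, and IL11 was lower where IL11RA gave none, and the differences between these genes' changes were not tested.

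Among the other ligands of the family, 4 of 8 passed the filter. edgeR called 0 of them without the block, with 0 at an unadjusted p below 0.05 and 0 by DESeq2 and limma-voom, and 1 with it, while DESeq2 with the block called 0. CLCF1, a cardiotrophin-like cytokine, was at 25.9 and 40.3 CPM in EV and 23.2 and 31.6 CPM with the FCN3 virus (log2 difference -0.26, edgeR adjusted p = 0.58 without and 0.0064 with the block, DESeq2 with the block 0.19). CNTF (log2 difference -0.32) and EBI3 (0.08) did not pass, with adjusted p of 0.40 and 0.79 in edgeR with the block. OSM, the ligand of OSMR, was at 1 and 1 counts in EV and 0 and 0 with the FCN3 virus, and IL27 and IL31 were at 0 throughout.

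Genes of the release of IL6 receptors from the cell surface were also followed. Their list of 6 holds the proteases ADAM10 and ADAM17 and includes IL6ST and IL6R. edgeR called 0 of the 6 without the block (2 at an unadjusted p below 0.05, with DESeq2 calling 1 and limma-voom 0), and with it 3 higher and 1 lower, while DESeq2 with the block called 2. ADAM17, the main sheddase of the IL6 receptor, rose with the block, from 78.0 and 77.5 CPM to 130 and 118 CPM (log2 difference 0.68, SE 0.09, edgeR adjusted p = 0.018 without and 1.3e-14 with the block). ADAM10 was at 156 and 168 CPM in EV and 174 and 190 CPM with the FCN3 virus (log2 difference 0.17, edgeR adjusted p = 0.32 without and 0.0066 with the block, DESeq2 with the block 0.14).

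Downstream of gp130, all 15 genes of JAK-STAT3 signalling and its feedback passed the filter, with a median log2 difference of 0.03. edgeR called 0 without the block (2 at an unadjusted p below 0.05, with DESeq2 calling 1 and limma-voom 0), and with it 1 higher and 2 lower, while DESeq2 with the block called 2. SOCS3, the feedback inhibitor that binds gp130, rose with the block, from 54.0 and 66.9 CPM to 77.4 and 86.7 CPM (log2 difference 0.44, SE 0.13, edgeR adjusted p = 0.12 without and 1.7e-08 with the block). The phosphatase PTPN2 had values of 37.6 and 34.3 CPM in EV and 30.8 and 29.3 CPM with the FCN3 virus (log2 difference -0.26, edgeR adjusted p = 0.20 without and 0.0030 with the block, DESeq2 with the block 0.15). PIAS1, of the family of STAT inhibitors, had a log2 difference of -0.23 (edgeR adjusted p = 0.26 without and 0.012 with the block).

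Of 20 genes known as STAT3 targets 15 passed the filter, with a median log2 difference of 0.14, and the hepatic acute-phase genes HP, SAA2 and CRP were at 0 in all libraries. edgeR called 0 without the block (5 at an unadjusted p below 0.05, with DESeq2 calling 2 and limma-voom 0), and with it 5 higher and 4 lower, against 19.1% and 17.1% of all tested genes, while DESeq2 with the block called 5. VEGFA, the angiogenic factor, rose with the block, from 36.3 and 36.0 CPM to 57.0 and 65.4 CPM (log2 difference 0.76, SE 0.11, edgeR adjusted p = 0.021). MYC rose with the block, from 185 and 203 CPM to 259 and 260 CPM (0.42, edgeR adjusted p = 0.047). BCL3, an NF-kappaB cofactor, fell with the block, from 35.2 and 55.4 CPM to 24.0 and 33.0 CPM (-0.66, edgeR adjusted p = 0.20). FGB, which encodes the fibrinogen beta chain, was at 1.04 and 10.9 CPM in EV and 0.501 and 1.66 CPM with the FCN3 virus, a fall with the block in overlapping groups (-2.39, SE 1.296, edgeR adjusted p = 0.32). The list thus moved in both directions.

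**Figure D4:**
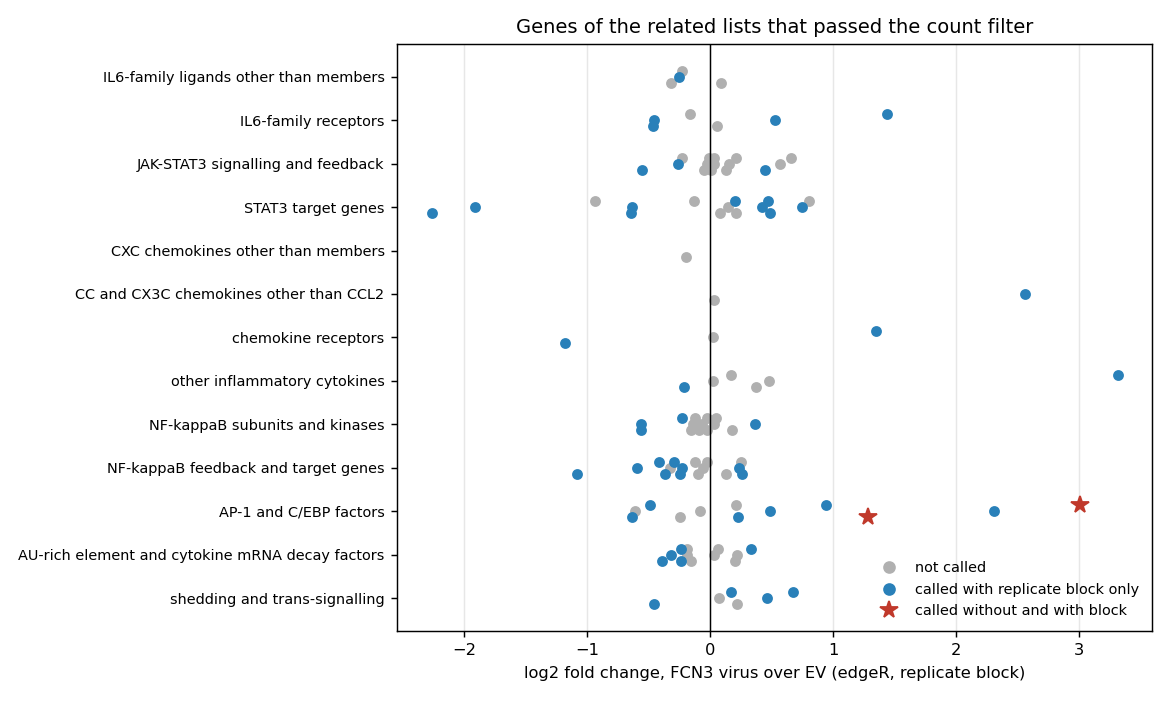
Log2 difference (edgeR with the replicate block) of each gene of the related lists that passed the count filter, grey where not called at an FDR of 0.01, blue where called only with the block and a red star where called without it too. CEBPG and ATF3 are the stars, and the remaining calls spread to both sides of 0 in most lists.

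Of the 14 NF-kappaB subunits and kinases, with a median log2 difference of -0.08, edgeR called 0 without the block (3 at an unadjusted p below 0.05, with DESeq2 calling 2 and limma-voom 0), and with it 1 higher and 3 lower, while DESeq2 with the block called 2. MAP3K14, the kinase NIK of the noncanonical pathway, fell with the block, from 268 and 288 CPM to 181 and 195 CPM (log2 difference -0.56, SE 0.09, edgeR adjusted p = 0.026). TRAF2, an adaptor of TNF receptors, fell with the block, from 75.3 and 89.8 CPM to 52.1 and 59.5 CPM (-0.56, edgeR adjusted p = 0.062). RELB (-0.23, edgeR adjusted p = 0.27 without and 0.0082 with the block) and the ubiquitin ligase TRAF6 (0.37, edgeR adjusted p = 0.16 without and 0.0014 with the block) were not called by DESeq2 with the block (adjusted p = 0.21 and 0.17).

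Of 16 NF-kappaB feedback and target genes, which include RELB and NFKB2 again, the median log2 difference was -0.17, against 0.02 over all tested genes. edgeR called 0 without the block (3 at an unadjusted p below 0.05, with DESeq2 calling 1 and limma-voom 0), and with it 2 higher and 7 lower, while DESeq2 with the block called 1. NFKBIA, the inhibitor IkappaB-alpha, fell with the block, from 93.8 and 117 CPM to 65.4 and 73.0 CPM (-0.60, SE 0.13, edgeR adjusted p = 0.060). It was the only one of the 4 genes named here that DESeq2 with the block also called. SOD2, the mitochondrial superoxide dismutase, was at 49.3 and 44.3 CPM in EV and 40.4 and 32.1 CPM with the FCN3 virus (-0.37, edgeR adjusted p = 0.19 without and 2.0e-05 with the block, DESeq2 with the block 0.014). ICAM1, an adhesion molecule, was at 1.87 and 4.06 CPM in EV and 0.825 and 2.01 CPM with the FCN3 virus, in overlapping groups (edgeR adjusted p = 0.33 without and 2.0e-04 with the block, DESeq2 with the block 0.096). BIRC3, an inhibitor of apoptosis, was at 91.4 and 93.6 CPM in EV and 71.6 and 85.7 CPM with the FCN3 virus (edgeR adjusted p = 0.26 without and 6.8e-04 with the block, DESeq2 with the block 0.051).

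The AP-1 and C/EBP factors, of which CEBPB, CEBPD and JUNB are also on the list of STAT3 targets, were the list with calls in the fit without the block, 2 of 12, both higher, against 0.965% of all tested genes, beside a median log2 difference of 0.21. limma-voom also called 2, DESeq2 called 3 higher and 1 lower, edgeR with the block 6 higher and 2 lower, against 19.1% and 17.1%, and DESeq2 with the block 4 in all, against 16.2%. ATF3, a stress-induced partner of AP-1 factors, rose from 3.48 and 5.79 CPM in EV to 35.0 and 35.5 CPM (log2 difference 3.001, SE 0.23, edgeR adjusted p = 0.0050). CEBPG, a C/EBP factor without its own activation domain, rose from 91.5 and 89.9 CPM to 210 and 232 CPM (1.28, SE 0.09, edgeR adjusted p = 0.0035). JUN rose with the block, from 69.0 and 81.7 CPM to 143 and 144 CPM (0.93, edgeR adjusted p = 0.013), and FOSL2 fell with it, from 153 and 169 CPM to 112 and 116 CPM (-0.50, edgeR adjusted p = 0.036). The list thus held genes that rose and genes that fell. It was chosen with earlier results of these data known, so its count of calls is no result about the list.

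Factors that bind AU-rich cytokine mRNAs gave small differences. Of the 12, with a median log2 difference of -0.17, edgeR called 0 without the block (5 at an unadjusted p below 0.05, with 0 by DESeq2 and limma-voom), and with it 1 higher and 4 lower, while DESeq2 with the block called 4. ZFP36L1, which promotes decay of such mRNAs, rose with the block, from 171 and 206 CPM to 229 and 241 CPM (0.32, SE 0.11, edgeR adjusted p = 0.16). KHSRP (-0.32), TIA1 (-0.39) and HNRNPD (-0.23), which also bind such elements, fell with the block, with adjusted p between 0.14 and 0.19 in edgeR without it. For the paragraphs on VEGFA to HNRNPD, every fall or rise given as with the block passed the FDR of 0.01 with the replicate block in both edgeR and DESeq2.

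Other inflammatory cytokines were mostly at or near the floor, with 6 of 16 past the filter, and TNF and IL1B at no more than 4 counts. edgeR called 0 without the block (1 at an unadjusted p below 0.05, with DESeq2 calling 1 and limma-voom 0), and with it 1 higher and 1 lower, while DESeq2 with the block called 1. IL1A, the gene counted as higher, was at 0.137 and 0.239 CPM in EV and 1.98 and 1.26 CPM with the FCN3 virus (log2 difference 3.28, SE 0.53). It had 5 and 4 counts in EV and passed the filter only through the FCN3 virus libraries, where it was high. Its call therefore lends the difference no support, and no p-value is given. CSF1, the macrophage growth factor, was at 117 and 142 CPM in EV and 111 and 110 CPM with the FCN3 virus (-0.23, edgeR adjusted p = 0.29 without and 0.0017 with the block, DESeq2 with the block 0.061). IL32 (0.18, edgeR adjusted p = 0.45) and IL12A (0.38, edgeR adjusted p = 0.55) did not pass in either fit.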

How the data were processed

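The members and gene lists were chosen with earlier results of these data known. RNA was measured in 4 A549 libraries, grouped by the labels, 2 per group. The authors trimmed the reads (Fastx_toolkit), aligned them to hg19 with STAR 2.6.1d and deposited gene-level expected counts from RSEM (estimated, not normalized). The authors also deposited TPM and FPKM, scaled in RSEM by length and depth, and FPKM was not used. Expected counts were rounded. edgeR 4.0.16 in R 4.3.3 (TMM, filterByExpr, quasi-likelihood fit and test, Benjamini-Hochberg adjustment over 14099 of 25192 genes, threshold 0.01) gave the results. The fits were also run on simulated counts whose replicate differences were absent or the same in both groups. That run cannot check genes whose replicate differences vary by group. CPM are TMM-normalized. The SE was the size of the log2 difference divided by the square root of F, and 95% intervals are normal approximations from them.

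Fits with a replicate block stand beside the others because the genes were to be compared by replicate number. The labels do not say what the number marks. Over 8310 genes whose average log2 CPM exceeded 4, the difference between replicates 1 and 2 in EV correlated with that in FCN3 (Pearson's r = 0.806, across genes, which are not independent replicates), and 6 of the 10 members had the same sign in both. Alternatives were DESeq2 1.42.0 and limma 3.58.1 (voom, and log2 TPM with pseudocounts of 1 and 0.1), with others named in the closing section. Named were the 10 members, FCN3, genes nearest to IL11 and, from each list, genes called without the block and then those with the smallest adjusted p with it, up to 4, with all IL6-family receptors. Some genes that this rule names are not reported here. A list gene named beyond that, or a marker, was chosen after its value was seen. Older symbols were used for 3 receptors (ACKR1, ACKR2 and ACKR3). The floor of 3 counts is 0.0823 to 0.179 CPM.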

Additional observations from a re-analysis of the deposited data

How the results depend on the processing

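Against 136 genes called by edgeR without the block, 5103 were called with the replicate number as a block, 1047 by DESeq2, 2212 by DESeq2 with the block and 1014 at an FDR of 0.05. With 1 library left out in turn the count ran from 92 to 267, the latter without EV replicate 2. Against 0 of the 9 members other than IL11, edgeR with the replicate block called 5 and DESeq2 with it 4. The count stayed 0 with RLE factors, no filter, at least 10 counts in every library, FCN3 left out before normalization and an offset from effective lengths. It was also 0 in limma-voom and in limma on log2 TPM. In edgeR without the block it was 0 at an FDR of 0.05 and with a minimum absolute log2 fold change of 1. A library left out turned the direction of 3 members: IL6 (-0.82 to 0.11, higher without EV replicate 2), CXCL5 (-0.79 to 0.31, and 0.04 without FCN3 replicate 2) and IL8 (-0.59 to 0.11, higher without FCN3 replicate 2). The cause was not tested. The other 7 members kept their direction under every setting. A fit with the replicate block and 1 library left out has no residual degrees of freedom and was not run. Depth limits IL6 most, with 8 to 21 counts. On log2(TPM + 1) the median over all genes shifted to -0.07.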
